A study of Mus musculus with 2 samples.

Results

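Solute carriers are membrane proteins that move small molecules such as amino acids, ions, metals, peptides and nucleosides across the cell surface or an organelle membrane. The genes described here are those of the array whose single annotated symbol names a solute carrier, apart from the glucose transporter family Slc2a and the monocarboxylate transporter family Slc16a. They number 241 of the 13709 genes measured and were read by 271 probes. Their members fall into 56 symbol families. Most genes were placed in a substrate class by their family or, where the family is mixed, by their own known cargo. Families for which no class was set at the start, among them Slc8b, Slc9b and Slc66a, were left without one. Polyadenylated RNA was taken from the lens of mice aged 13 days, and 1 array was hybridized for the cortical fiber cells and 1 for the epithelium, which came away with the capsule. No strain or treatment is named, the design text gives 5 mice, and the sources used here do not say whether their lenses were pooled.

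The lens has no blood vessels, so its cells take up nutrients and clear wastes through the fluids around it. The epithelium lies on the anterior surface and carries much of the ion pumping, while fiber cells make up the bulk and exchange solutes with the surface and with each other. Sodium that is pumped out drives many of the carriers that bring in amino acids, phosphate and osmolytes. The comparison asks which transporter genes differ between these cells. Because bulk RNA was measured, fewer cells of a type and less RNA per cell cannot be told apart.

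Values are normalized intensities in which 1 lies close to each array's median. A floor was set at 0.5 of the median (0.499 on both arrays), and a difference is log2 cortex minus log2 epithelium after values below the floor were raised to it. Where a value lay below the floor on 1 array, the fold is a lower bound and is written "at least". A gene passed when it was at least 3-fold brighter on 1 array and reached that array's median there. With 1 array for each sample there is no replicate and no test, and every comparison below is between these 2 arrays. What error can be seen comes from genes with more than 1 probe. For 558 of them at least 2 probes exceeded the floor in cortex and in epithelium alike. Between those probes the log2 difference had a pooled SD of 1.10 and a median SD of 0.59. A single probe near the 3-fold limit is thus weak evidence. Probes below the floor on either array did not enter, so these SDs leave out disagreements such as that in Slc1a2 (7.29 and 0.00).

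The libraries carried the markers of their labelled cells. Of 12 fiber markers 10 were higher on the cortex array and none on the other, and of 11 epithelial markers 8 were higher on the epithelium array and none on the cortex array. Fiber markers were also bright on the epithelium array, with Cryba1 at 1016 and Crygs at 988 there. They summed to 17203 in cortex and 3024 in epithelium. Epithelial markers summed to 348 in cortex, where Sfrp1 alone stood at 329, and to 734 in epithelium. A longer protocol text attached to each sample mentions liver of wild-type embryos, although titles and sources name the lens. Among 9 liver genes only Ahsg (185 in cortex, 16.9 in epithelium) passed, and Apoa1, Ttr and Serpina1a were below the floor on both arrays. Of 8 erythroid genes Rhag (20.9 and 6.37) and Epb42 (2.09 and 0.678) passed, both in cortex. Some genes of neighbouring eye tissue were brighter on the epithelium array. These were 3 of 12 ciliary body genes, among them Ptgds (7.54 in cortex, 123 in epithelium) and Msx1 (1.07 and 8.36), and 2 of 10 pigment genes, Oca2 (0.521 and 9.09) and Tyrp1 (0.241 and 3.30). In the other direction 2 ciliary body genes (Crb1, 249 and 12.9, and Opn3, 3.44 and 1.04) and 1 pigment gene (Dct, 1.97 and 0.210) were higher in cortex. Summed over each list, ciliary body genes stood at 289 in cortex and 174 in epithelium, and pigment genes at 8.63 and 20.0. Leukocyte genes gave no call, with 8 of 9 below the floor on both arrays. The same held for 7 endothelial genes, 4 of them below the floor on both, and of 10 fibroblast genes only Col1a2 (0.0548 and 1.67) passed. The part of these neighbouring cells in the solute carrier values was not tested. The source of the fiber marker signal on the epithelium array was not tested either.

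Of the 241 solute carriers, 34 (14.1%) passed as higher in cortex and 21 (8.71%) as higher in epithelium. Over all genes the shares were 9.41% in cortex and 8.17% in epithelium. The members' share in epithelium was thus close to that of all genes, and their share in cortex was above it. A further 126 members exceeded the floor somewhere without passing, and 60 (24.9%, against 24.5% of all genes) were below it on both. Over the 181 members that exceeded the floor on either array, the median log2 difference was 0.14, beside 0.07 for all such genes. Over the 141 members above it on both arrays, differences ran from -3.40 to 6.36 with an SD of 1.68 between genes, beside an SD of 1.49 for all genes. Differences of 10-fold or more were found for 10 members in cortex (4.15%) and 3 in epithelium (1.24%), beside 2.06% and 1.19% of all genes. The direction of the balance depended on the scaling. Centring on 62 cytosolic ribosomal protein genes shifted the difference of genes that exceeded the floor on either array by -0.95 and left 16 members higher in cortex and 47 in epithelium, where all genes gave 4.1% and 20.5%. Of the passing members, 61.8% were higher in cortex as deposited and 25.4% after that centring, beside 53.5% and 16.7% of all passing genes. Quantile normalization gave 57.9% of members and 46.6% of all genes, and a loess correction on brightness 63.6% and 54.1%. The change of balance was thus common to members and all genes.

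**Figure D1:**
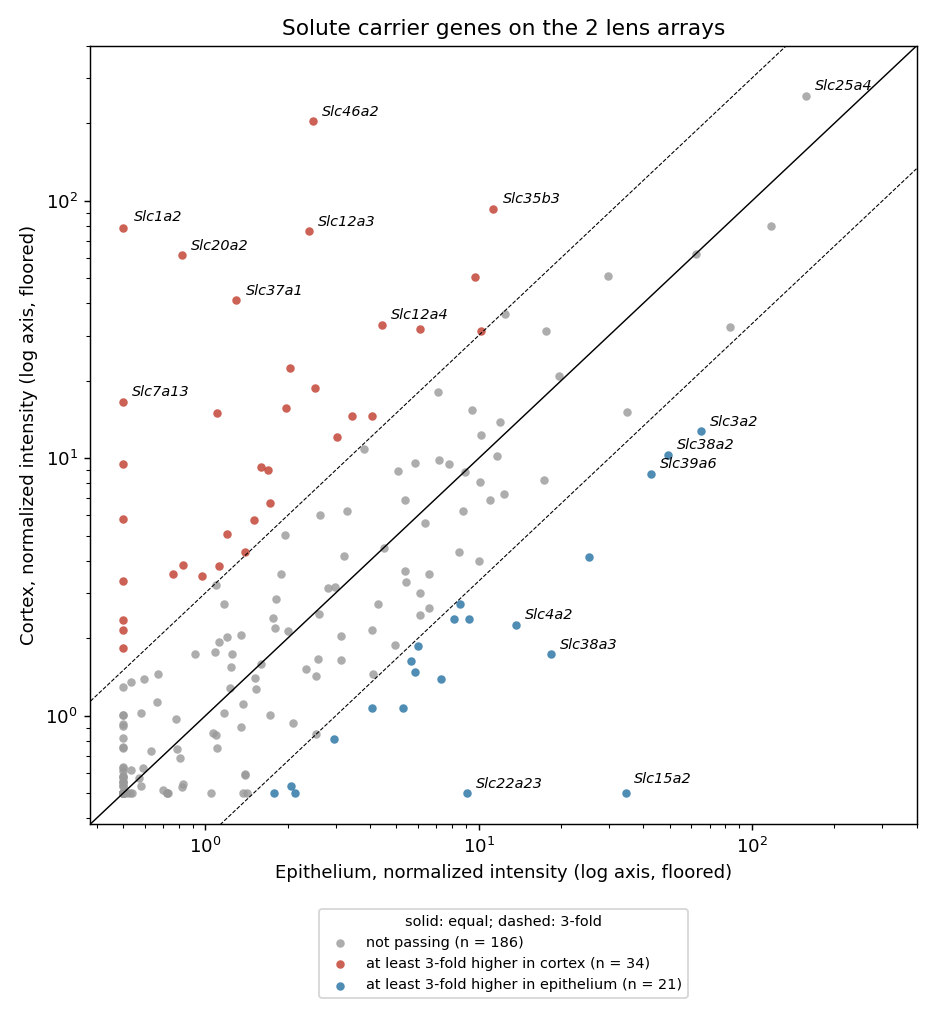
Normalized intensity of each of the 241 solute carrier genes on the cortex array (vertical) and the epithelium array (horizontal), both on log axes, with values below the floor drawn at it. Points are genes, 34 of them past the 3-fold limit in cortex and 21 in epithelium, and Slc46a2 (204 in cortex, 2.48 in epithelium) and Slc15a2 (0.394 and 34.7) lie far from the diagonal on either side.

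In the 5 classes of amino acid, ion, peptide, nucleoside and metal carriers, 12 of 113 genes passed in each direction (10.6%, near the 9.41% and 8.17% of all genes). The remaining 128 genes, in the other classes, passed 22 times in cortex (17.2%) and 9 times in epithelium (7.03%). Every count of a class or list below, at the 3-fold limit and the deposited scaling, is to be read beside the same 9.41% and 8.17%. In small classes and lists a single gene changes the share much. The classes are described in turn, and no difference between them was tested.

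**Figure D2:**
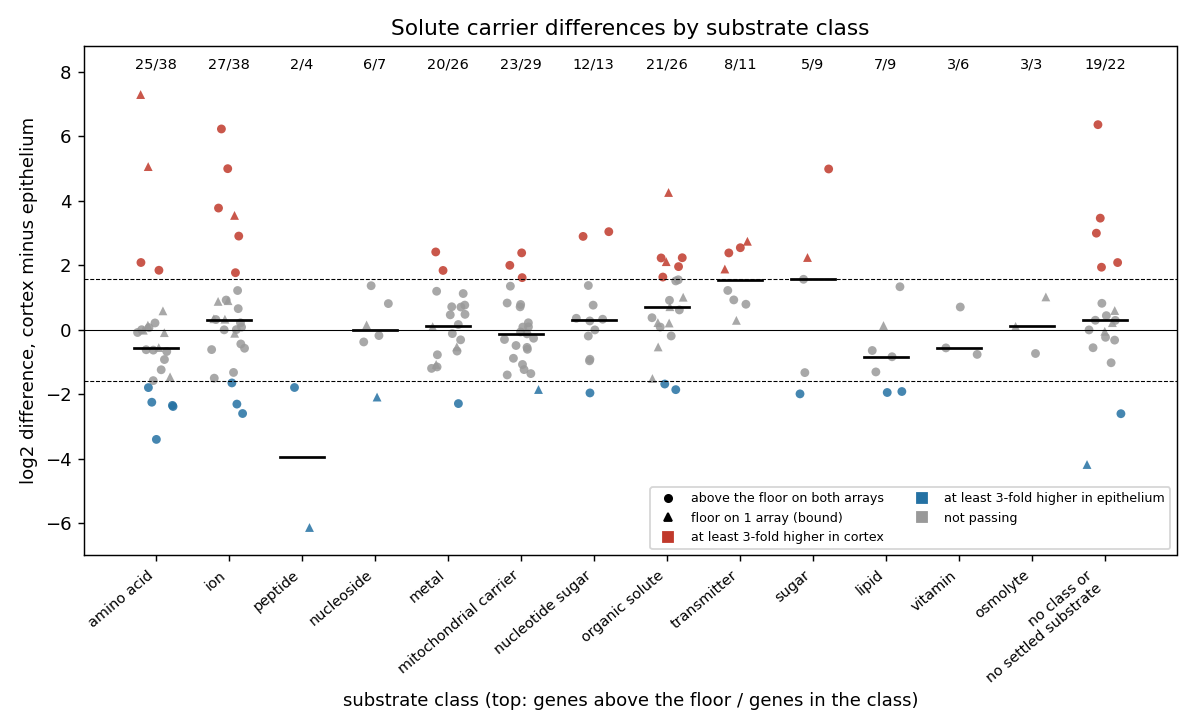
Log2 difference of each solute carrier that exceeded the floor on either array, by substrate class, with triangles for genes below the floor on 1 array, bars at the class median and dashed lines at 3-fold. Amino acid carriers have a median of -0.55 and ion carriers one of 0.32, and the largest difference in each direction is Slc1a2 (7.29) and Slc15a2 (-6.12).

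Amino acid carriers passed in both directions. Of 38 genes, 5 passed in epithelium (13.2%) and 4 in cortex (10.5%), 16 did not pass and 13 were below the floor on both arrays. Among the 17 above the floor on both arrays, 13 were brighter in epithelium, and the median difference was -0.67.

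The 5 genes higher in epithelium belong to families that carry neutral or cationic amino acids or serve their transport. Slc3a2 encodes the heavy chain that brings a set of amino acid exchangers to the cell surface, and it stood at 12.8 in cortex and 65.0 in epithelium, 5.09-fold higher in epithelium. Slc38a2, a sodium-coupled importer of small neutral amino acids, stood at 10.3 in cortex and 49.2 in epithelium (4.75-fold). Slc38a3, a sodium-coupled glutamine carrier, had the widest such difference of its class, with 1.73 in cortex and 18.3 in epithelium (10.6-fold). Slc7a2, an importer of arginine and lysine, stood at 1.40 and 7.27 (5.21-fold), and its relative Slc7a4 at 1.63 and 5.65 (3.47-fold). Each of these 5 genes also passed under quantile normalization, loess and ribosomal centring. They were read by 1 probe each, so none has a second measurement.

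Slc7a5, Slc7a7 and Slc7a8, light chains that pair with the Slc3a2 product, gave little signal, with 1 probe each. Slc7a6 and Slc7a11 were not among the members, so the light chains were not all measured. Slc7a5 was below the floor on both arrays, and Slc7a8 (0.371 in cortex, 1.37 in epithelium) had a bound of at least 2.75-fold that did not pass. Slc7a7 stood on about the same level on both (1.28 and 1.23). The exchangers of small neutral amino acids also stayed under the limit. Slc1a4 stood at 6.91 in cortex and 11.0 in epithelium, and Slc1a5 was below the floor in cortex and at 0.733 in epithelium.

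The 4 amino acid carriers higher in cortex include glutamate transporters. Slc1a2, the main glutamate transporter of brain astrocytes, stood at 78.2 in cortex and below the floor (0.479) in epithelium, which is at least 157-fold higher in cortex, or at least 78.4-fold with the floor raised to the median. That value rests on 1 probe, since the other probe of Slc1a2 was below the floor on both arrays (0.234 and 0.0539). Slc7a13, a light chain that carries aspartate and glutamate, was at least 33.3-fold higher in cortex (16.6 against 0.299), and its other probe was at least 5.67-fold higher there too (2.83 against 0.138). Slc1a7, a glutamate transporter known from the retina, stood at 5.10 and 1.20 (4.24-fold). Other glutamate transporter genes of this family did not pass, with Slc1a3 at 1.52 in cortex and 2.34 in epithelium and Slc1a6 below the floor on both arrays. Slc38a5, which carries glutamine and other neutral amino acids, stood at 14.6 and 4.08 (3.59-fold), opposite in direction to Slc38a2 and Slc38a3 of its family. After ribosomal centring Slc1a7 and Slc38a5 no longer passed, with differences of 1.14 and 0.90.

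**Figure D3:**
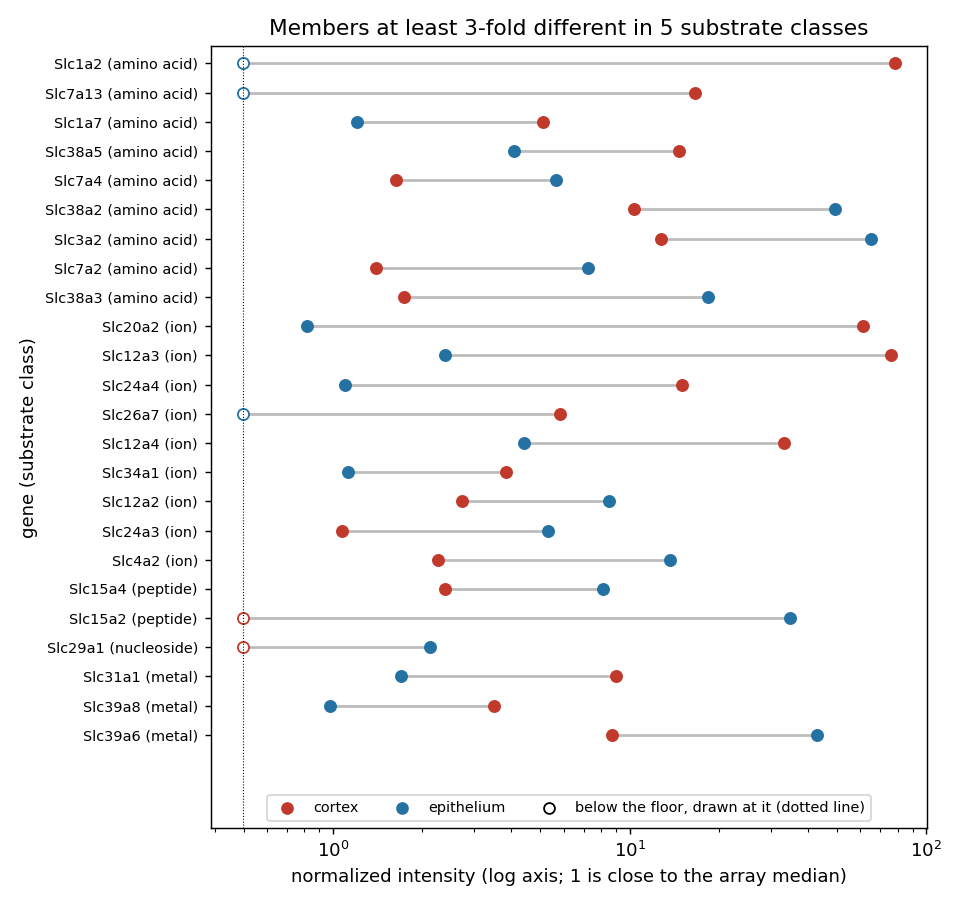
Normalized intensity (log axis) in cortex and in epithelium for the 24 members of the 5 classes that were at least 3-fold different, with open circles for values below the floor. The 12 genes higher in cortex include Slc1a2, Slc20a2 and Slc12a3, and the 12 higher in epithelium include Slc15a2, Slc3a2 and Slc38a2.

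Ion carriers also passed in both directions. Of 38 genes, 6 passed in cortex (15.8%, beside 9.41% of all genes) and 3 in epithelium (7.89%, beside 8.17%), 18 did not pass and 11 were below the floor on both arrays. Their differences were the most spread of the classes with more than 5 genes above the floor on both arrays, with an SD of 2.29 over 21 genes. The median over these 21 genes was 0.08, with 12 brighter in cortex and 9 in epithelium. After ribosomal centring 5 ion carriers passed in each direction.

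Both phosphate importers of the Slc20a family were measured, and they pointed in opposite directions. Slc20a2 stood at 61.4 in cortex and 0.821 in epithelium (74.8-fold, or at least 61.6-fold with the floor raised to the median), and Slc20a1 at 2.62 in cortex and 6.57 in epithelium (2.51-fold, not passing). Slc34a1, a sodium-phosphate cotransporter known from the kidney, was 3.41-fold higher in cortex (3.83 and 1.12). Slc34a3 (1.74 and 0.918) and Slc34a2 (0.732 and 0.631) did not pass. After ribosomal centring Slc34a1 fell short of the limit, with a difference of 0.82, while Slc20a2 still passed with 5.28.

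Cation-chloride cotransporters set cell volume and chloride content. Slc12a2, which brings sodium, potassium and chloride into cells, stood at 2.72 in cortex and 8.54 in epithelium (3.14-fold), just past the limit, and it did not pass after loess (-1.52). Slc12a4, a potassium-chloride exporter, stood at 33.0 in cortex and 4.42 in epithelium (7.48-fold). Its second probe was dimmer and differed less (3.71 and 2.46, 1.51-fold). Slc12a3, the thiazide-sensitive importer of sodium and chloride known from the kidney, stood at 76.2 and 2.39 (31.9-fold higher in cortex). Slc12a7, another potassium-chloride exporter, was near the floor on both arrays (0.541 and 0.830). Slc12a8 had a pair of probes that disagreed. The probe used stood at 62.5 in cortex and 62.3 in epithelium, and the other at 98.4 and 6.50, which is 15.1-fold higher in cortex.

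Exchangers that use sodium and potassium gradients to move calcium out also went both ways. Slc24a4 was 13.7-fold higher in cortex (15.1 and 1.10), and its second probe was 18.6-fold higher there (12.7 and 0.684). Slc24a3 was 4.95-fold higher in epithelium (1.07 and 5.31). Slc24a2 (2.71 and 1.17) did not pass, and Slc8a1, of the sodium-calcium exchangers, was below the floor on both arrays.

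Bicarbonate and anion carriers gave 1 call each way. Slc4a2, a chloride-bicarbonate exchanger, stood at 2.26 in cortex and 13.7 in epithelium (6.06-fold). Both probes of its relative Slc4a3 were brighter in epithelium without passing (2.83-fold and 2.04-fold). Slc26a7, an anion carrier, was at least 11.7-fold higher in cortex (5.82 against 0.171). The sodium-bicarbonate cotransporter gene Slc4a4 was near the floor on both arrays (0.625 and 0.591).

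Peptide carriers were the class with the widest difference in the direction of epithelium. Slc15a2, the high-affinity proton-coupled importer of small peptides, stood at 34.7 in epithelium and below the floor (0.394) in cortex. That is at least 69.5-fold higher in epithelium, or at least 34.7-fold with the floor raised to the median, and it passed under every alternative tried. Slc15a4, which carries peptides and histidine in lysosomes, stood at 2.38 in cortex and 8.11 in epithelium with the probe used (3.41-fold). A second probe of Slc15a4 went the other way (5.61 in cortex and 0.844 in epithelium, 6.64-fold), and the remaining probe was below the floor on both arrays, so no direction can be given for this gene. Slc15a1 and Slc15a3 were below the floor on both arrays.

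Nucleoside carriers gave 1 call among 7 genes (14.3%). Slc29a1, the main equilibrative carrier of nucleosides at the cell surface, stood at 0.221 in cortex, below the floor, and at 2.12 in epithelium. The difference was at least 4.25-fold, but only at least 2.13-fold with the floor raised to the median, where it did not pass. Slc29a2, of the same type, leaned the other way without passing (5.03 in cortex and 1.95 in epithelium, 2.58-fold). Slc29a3 (5.61 and 6.36), a lysosomal nucleoside carrier, and Slc29a4 (0.844 and 1.10) differed by less than 1.5-fold. The concentrative carriers Slc28a2 (1.02 and 0.583) and Slc28a3 (0.553 and 0.309) did not pass, and the nucleobase carrier gene Slc43a3 was below it on both arrays.

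Metal carriers passed in both directions. Of 26 genes, 2 passed in cortex (7.69%, beside 9.41% of all genes) and 1 in epithelium (3.85%, beside 8.17%). A further 17 did not pass and 6 were below the floor on both arrays. These counts are too small to set the class apart from all genes. Quantile normalization gave 2 in epithelium. Ribosomal centring gave 0 in cortex and 6 in epithelium, where all genes gave 4.1% and 20.5%. Slc39a6, a zinc importer, stood at 8.73 in cortex and 42.7 in epithelium (4.89-fold), and Slc39a7, which releases zinc from the endoplasmic reticulum, leaned the same way (15.1 and 34.8, 2.30-fold). Slc39a8, an importer of zinc and manganese, stood at 3.49 and 0.975 (3.57-fold higher in cortex). Slc31a1, the copper importer of the cell surface, stood at 9.00 and 1.69 (5.32-fold higher in cortex). Neither Slc39a8 nor Slc31a1 passed after ribosomal centring, with differences of 0.89 and 1.47.

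None of the 9 Slc30a genes, which move zinc out of the cytosol, passed. Slc30a1 was below the floor in cortex and at 0.721 in epithelium. Slc40a1, the iron exporter, was brighter in cortex without passing (6.02 and 2.64, 2.29-fold). Slc11a2, an importer of ferrous iron, was below the floor in cortex and at 1.05 in epithelium, and Slc39a14 differed little (1.74 and 1.25).

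Among the mitochondrial carriers 3 of 29 passed in cortex (10.3%, near the share of all genes) and 1 in epithelium (3.45%). Slc25a33, a carrier of pyrimidine nucleotides, stood at 50.4 and 9.67 (5.22-fold higher in cortex), with a second probe at 31.7 and 7.64 (4.15-fold). Slc25a37, the mitoferrin that brings iron into mitochondria, stood at 12.1 and 3.02 (3.99-fold). Slc25a45 was at the limit (31.2 and 10.2, 3.06-fold) and did not pass under quantile normalization, loess or ribosomal centring. After ribosomal centring Slc25a33 (1.44) and Slc25a37 (1.05) did not pass either. Slc25a14 was at least 3.57-fold higher in epithelium (0.288 against 1.78), but not past the limit with the floor raised to the median. The paired ADP/ATP carrier genes leaned in opposite directions without passing, with Slc25a4 at 257 in cortex and 157 in epithelium and Slc25a5 at 32.5 and 83.4. The log2 difference of Slc25a4 (0.71) is smaller than the ribosomal shift of 0.95, so after that centring both leaned to epithelium.

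Carriers that load nucleotide sugars into the Golgi and endoplasmic reticulum passed in 3 of 13 genes, 2 in cortex (15.4%) and 1 in epithelium (7.69%). Slc35b3, which carries the sulfate donor of glycan sulfation, stood at 93.2 in cortex and 11.3 in epithelium (8.22-fold). Slc35a4 was 7.43-fold higher in cortex (18.7 and 2.52), and Slc35a1, the carrier of CMP-sialic acid, was 3.89-fold higher in epithelium (2.37 and 9.22). Sialic acid also has a lysosomal exporter, Slc17a5, which was 3.63-fold higher in epithelium (0.812 and 2.94) and just under the limit with the floor raised to the median (at least 2.95-fold).

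Carriers of organic solutes passed in cortex in 6 of 26 genes (23.1%) and in epithelium in 2 (7.69%). Slc10a2, the bile acid importer of the ileum, was at least 19.1-fold higher in cortex (9.53 against 0.451). Slc10a6, a carrier of steroid sulfates (3.57 and 0.760, 4.70-fold), and Slc22a2, an organic cation carrier (3.87 and 0.827, 4.68-fold), followed. The other passing genes in cortex differed by 3.10-fold (the creatine carrier gene Slc6a8) to at least 4.32-fold (Slc22a19), and with Slc22a13 they are named because the count is small. Of these 6 genes Slc10a2 alone passed after ribosomal centring, where Slc10a6 stood at 1.29 and Slc22a2 at 1.28. Slc22a19 also did not pass with the floor raised to the median. Slc33a1, the acetyl-CoA carrier of the endoplasmic reticulum, was 3.21-fold higher in epithelium (1.86 and 5.99), though not past the limit after loess.

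Transmitter carriers, known from neurons, passed in cortex in 4 of 11 genes (36.4%) and in none in epithelium. The serotonin carrier gene Slc6a4 stood at 31.8 and 6.11 (5.21-fold), and Slc18a2, the vesicular carrier of monoamines, at 9.30 and 1.60 (5.83-fold). Slc17a6, a vesicular glutamate carrier, was at least 6.69-fold higher in cortex (3.34 against 0.277), with its other probe below the floor on both arrays, and it did not pass with the mean over probes. The fourth was Slc17a7 (1.84 against 0.436), which did not pass with the floor raised to the median. After ribosomal centring Slc18a2 and Slc17a6 alone of these genes passed.

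Carriers of sugars and sugar phosphates, vitamins, osmolytes and fatty acids gave few calls. Slc37a1, a sugar phosphate exchanger, was 31.7-fold higher in cortex (41.2 and 1.30), and Slc5a2, the sodium-glucose cotransporter of the kidney, at least 4.73-fold (2.36 against 0.420). Slc5a2 did not pass with the floor raised to the median (at least 2.37-fold) or after ribosomal centring (1.30). Slc37a4, which carries glucose 6-phosphate into the endoplasmic reticulum, was 3.97-fold higher in epithelium (1.48 and 5.86). The fatty acid carrier genes Slc27a4 (1.08 and 4.06, 3.78-fold) and Slc27a3 (0.535 and 2.06, 3.86-fold) were higher in epithelium, the latter not past the limit with the floor raised to the median. None of 6 vitamin carriers passed, and the ascorbate carrier genes Slc23a1 and Slc23a2 were below the floor on both arrays. The taurine carrier gene Slc6a6 was brighter in epithelium without passing (3.30 and 5.42, 1.64-fold).

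A group of 22 members had no settled substrate or no entry in the class table. Of these 5 passed in cortex (22.7%) and 2 in epithelium (9.09%). Slc46a2 had the widest measured difference of all members, with 204 in cortex and 2.48 in epithelium (82.1-fold). Its family member Slc46a3, a lysosomal membrane protein, stood at 22.5 and 2.05 (11.0-fold), and Slc35g3 at 15.7 and 1.97 (7.97-fold). Slc35f6 (5.78 and 1.51) and Slc35e4 (14.6 and 3.45) also passed in cortex, but the second probe of Slc35e4 was 3.45-fold higher in epithelium (0.702 and 2.42). Neither Slc35f6 nor Slc35e4 passed after ribosomal centring. Slc22a23 was at least 18.1-fold higher in epithelium (0.372 against 9.05), and Slc22a17, a receptor for lipocalin 2, was 6.08-fold higher there (4.15 and 25.2). The melanosome gene Slc45a2, also a pigment marker, did not pass (0.581 in cortex, below the floor in epithelium).

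Members of 1 family could pass in different directions. Of the 56 families 30 had at least 1 passing gene, and in 10 of these a gene passed in each direction. Those 10 were Slc7a, Slc12a, Slc17a, Slc22a, Slc24a, Slc25a, Slc35a, Slc37a, Slc38a and Slc39a. Larger families, such as Slc25a (30 genes) and Slc22a (16 genes), have more genes that can pass. The same count was not made for other gene families, so no background share stands beside it. After ribosomal centring no gene passed in cortex in Slc22a, Slc25a, Slc38a or Slc39a.

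The genes with several probes show how far a single probe can be trusted. Of 28 such members, 14 had a further probe that exceeded the floor on either array. Of the 8 passing genes among the 28, the other probe passed in the same direction for 3 (Slc7a13, Slc24a4 and Slc25a33) and in the opposite direction for 2 (Slc15a4 and Slc35e4). For 2 more (Slc1a2 and Slc17a6) the other probe was below the floor on both arrays, and for Slc12a4 it differed by 1.51-fold in the same direction. In 11 members several probes each exceeded the floor in cortex and in epithelium. Between these probes the log2 difference had a pooled SD of 1.61 and a median SD of 0.38. Probes below the floor on either array, as in Slc1a2 and Slc17a6, did not enter. The pooled value is the larger because Slc15a4, Slc12a8 and Slc35e4 had probes that disagreed. The other 47 passing members had 1 probe.

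**Figure D4:**
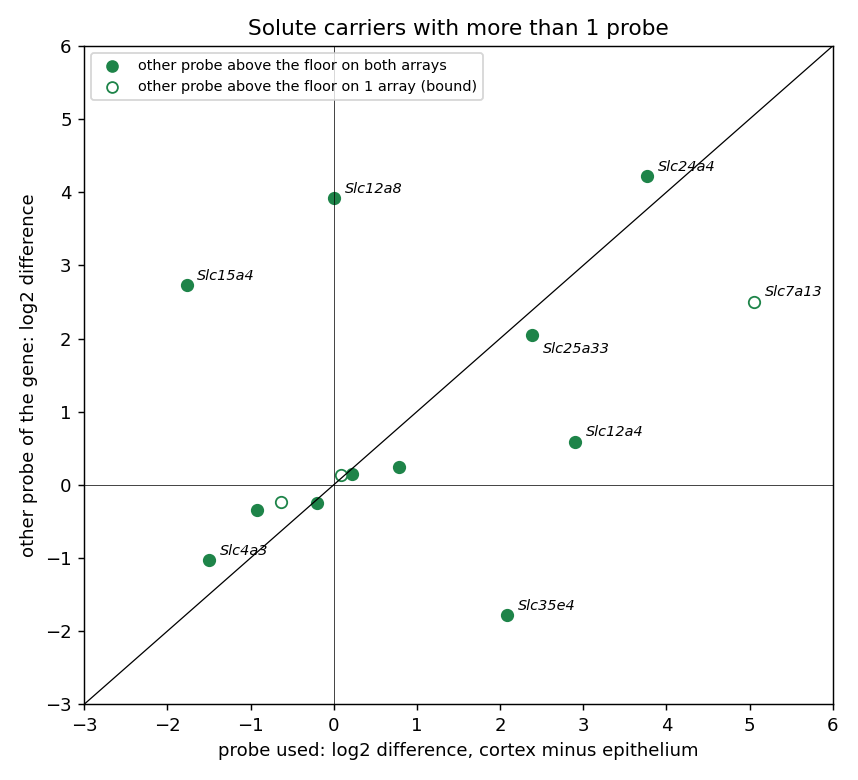
Log2 difference (cortex minus epithelium) of the probe used (horizontal) and of each further probe of the same gene that exceeded the floor on either array (vertical), for solute carriers with more than 1 probe, with the line of equal values. Slc24a4 (3.77 and 4.22) and Slc25a33 (2.38 and 2.05) lie near the line, and Slc15a4 (-1.77 and 2.73), Slc12a8 (0.00 and 3.92) and Slc35e4 (2.08 and -1.79) lie far from it.

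The 27 solute carriers listed as known lens transporters had 21 members on the array. Of these 4 passed in epithelium (19.0%, Slc3a2, Slc38a2, Slc12a2 and Slc29a1) and 2 in cortex (9.52%, Slc12a4 and Slc20a2). The median difference was -0.67 over the 17 that exceeded the floor on either array. The others of the list were not analysed here.

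Genes that serve these carriers were taken from fixed lists. Of 8 sodium pump genes, 2 passed in epithelium (25%) and 1 in cortex (12.5%). The pump's beta subunit genes Atp1b3 (15.8 in cortex and 225 in epithelium, 14.2-fold) and Atp1b1 (0.826 and 7.10, 8.60-fold) were higher in epithelium. Fxyd2, a small regulatory subunit, was 62.0-fold higher in cortex (1198 and 19.3), and Fxyd1 did not pass (46.7 and 21.3). Of 15 regulators of carriers, the kinase gene Stk39, which acts on cation-chloride cotransporters, passed in cortex (7.53 and 2.23, 3.38-fold). The scaffold gene Slc9a3r1 passed in epithelium (0.455 against 2.36, at least 4.73-fold), but only at least 2.36-fold with the floor raised to the median, where it did not pass. The remaining 13 did not pass.

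Metal handling gave 4 calls in each direction among 19 genes (21.1% each way). Heph, a ferroxidase that works with the iron exporter, was at least 25.1-fold higher in epithelium (0.416 against 12.5), and the metalloreductase gene Steap2 8.05-fold (0.942 and 7.58). Another metalloreductase gene, Steap3, was at least 12.7-fold higher in cortex (6.35 against 0.439). The ferroxidase gene Cp was 5.46-fold higher in epithelium (1.18 and 6.43). Of 13 genes of nucleoside use, 4 passed in epithelium (30.8%) and 1 in cortex (7.69%). The purine nucleoside phosphorylase gene Pnp was 11.1-fold higher in epithelium (2.38 and 26.3), the thymidine kinase gene Tk1 at least 6.95-fold (0.395 against 3.47) and the cytosolic nucleotidase gene Nt5c 3.61-fold. The deoxycytidine kinase gene Dck was 12.9-fold higher in cortex (88.0 and 6.80).

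Of 14 glutathione supply genes, 2 peptidase genes passed in cortex, Dpep1 (17.4 and 4.76, 3.66-fold) and Lap3 (29.8 and 8.95, 3.33-fold), and Cbs passed in epithelium (0.324 against 1.98). Of 8 genes of the osmotic response list, the water channel genes Mip (10.8-fold) and Aqp5 (4.21-fold) passed in cortex. Aqp1 (at least 14.3-fold) and the inositol phosphatase gene Impa1 (at least 3.10-fold) passed in epithelium. Among 13 genes of the amino acid response, 2 passed in epithelium (15.4%) and none in cortex. They were Phgdh (1.35 and 16.4, 12.2-fold) and Shmt2 (3.08 and 12.7, 4.11-fold), enzymes of serine and glycine synthesis. Atf4, the transcription factor of this response, stood at 250.2 in cortex and 96.3 in epithelium, under the limit. Of 10 organic anion carriers of the Slco family, which the symbol rule leaves out, Slco3a1 (5.03-fold) and Slco1a4 (at least 4.13-fold) passed in epithelium and Slco4a1 (4.48-fold) in cortex. With the floor raised to the median, Cbs (1.98-fold), Impa1 (1.55-fold), Slco1a4 (2.06-fold) and Slco4a1 (2.46-fold) did not pass, nor did Atp7b of the metal handling list (2.43-fold), each of these folds being a lower bound. The same held for Epb42 (2.10-fold), Dct (1.98-fold), Col1a2 (1.68-fold) and the ciliary body gene Gpx3 (1.55-fold) among the markers.

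Promoter sequence was looked up to set the letters beside the values. RefSeq (GRCm38.p6) gave a start site for 188 members, and the 250 bases before it were searched on both strands for 3 motifs, using any start site of a gene. The antioxidant response motif TGACNNNGC was found in 16.5% of these members and 11.5% of all 27025 genes. It occurred in 5 of 27 members higher in cortex and in 4 of 16 higher in epithelium. The heat shock motif GAANNTTC, which reads the same on both strands, was found in 9.04% of members and 7.73% of all genes, among them 3 members higher in cortex and 1 higher in epithelium. The amino acid response motif TGATGNAA was found in 2.13% of members and 3.91% of all genes, and in no member that passed. A match is a description of letters and not a site of binding. The 4 windows below were chosen after the values were seen, as examples from each direction. Among them are Slc15a2, the widest difference in epithelium, and Slc46a2, the widest in cortex among members above the floor on both arrays. The 4 windows are Slc46a2 and Slc46a3, from 1 family and both higher in cortex, and Slc38a2 and Slc15a2, both higher in epithelium. They are printed 5′ to 3′ on the gene's strand with motif matches in capitals.

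Slc46a2, chr4:59915057-59915306, minus strand, 82.1-fold higher in cortex: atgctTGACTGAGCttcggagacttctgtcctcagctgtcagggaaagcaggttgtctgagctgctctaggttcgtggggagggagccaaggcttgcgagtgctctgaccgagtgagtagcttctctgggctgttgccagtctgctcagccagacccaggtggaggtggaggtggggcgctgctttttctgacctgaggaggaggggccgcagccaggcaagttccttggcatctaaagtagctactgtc

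Slc46a3, chr5:147894816-147895065, minus strand, 11.0-fold higher in cortex: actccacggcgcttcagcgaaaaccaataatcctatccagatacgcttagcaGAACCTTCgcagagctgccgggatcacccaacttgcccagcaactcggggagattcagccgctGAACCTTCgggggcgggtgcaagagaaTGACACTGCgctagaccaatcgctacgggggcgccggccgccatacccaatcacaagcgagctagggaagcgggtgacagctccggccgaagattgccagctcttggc

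Slc38a2, chr15:96699729-96699978, minus strand, 4.75-fold higher in epithelium: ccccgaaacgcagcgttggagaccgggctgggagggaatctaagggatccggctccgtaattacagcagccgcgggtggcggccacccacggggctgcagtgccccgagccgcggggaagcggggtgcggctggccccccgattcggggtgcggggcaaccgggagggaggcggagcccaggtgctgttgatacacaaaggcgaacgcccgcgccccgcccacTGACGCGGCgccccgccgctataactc

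Slc15a2, chr16:36784963-36785212, minus strand, at least 69.5-fold higher in epithelium: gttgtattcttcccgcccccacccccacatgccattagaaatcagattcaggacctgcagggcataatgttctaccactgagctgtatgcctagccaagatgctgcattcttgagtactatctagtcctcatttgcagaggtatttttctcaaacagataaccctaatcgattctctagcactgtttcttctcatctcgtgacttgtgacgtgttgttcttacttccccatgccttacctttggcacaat

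The antioxidant response letters stood once in each of the first 3 windows, at -245 to -237 in Slc46a2, -108 to -100 in Slc46a3 and -27 to -19 in Slc38a2, counted from the start site. Slc46a3 also held the heat shock letters at -198 to -191 and at -135 to -128. The Slc15a2 window held none of the 3 motifs. The same motif was thus present in windows of genes that differed in opposite directions.

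The counts of passing members changed little with some settings and much with others. From 31 to 36 members passed in cortex and from 17 to 24 in epithelium under quantile normalization, loess, either other floor and the mean over probes. All genes gave 8.07% to 10.4% in cortex and 6.40% to 9.48% in epithelium under these settings. Ribosomal centring gave 16 and 47, the 2-fold limit 47 and 37 and the 5-fold limit 19 and 7. The shares of all genes were 4.1% and 20.5%, 16.4% and 15.3%, and 5.09% and 3.48%, in the same order. Leaving out the filter on dim genes could not change a count. After the 3 changes of scaling (quantile, loess and ribosomal centring), 16 of the 34 members higher in cortex and 19 of the 21 higher in epithelium passed each time. With both other floors and the mean over probes added, 15 and 14 did. The 15 in cortex include Slc1a2, Slc7a13, Slc20a2, Slc12a3, Slc12a4, Slc24a4, Slc26a7, Slc37a1 and Slc46a2. The 14 in epithelium include Slc15a2, Slc38a2, Slc38a3, Slc3a2, Slc7a2, Slc4a2, Slc39a6 and Slc22a23.

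**Figure D5:**
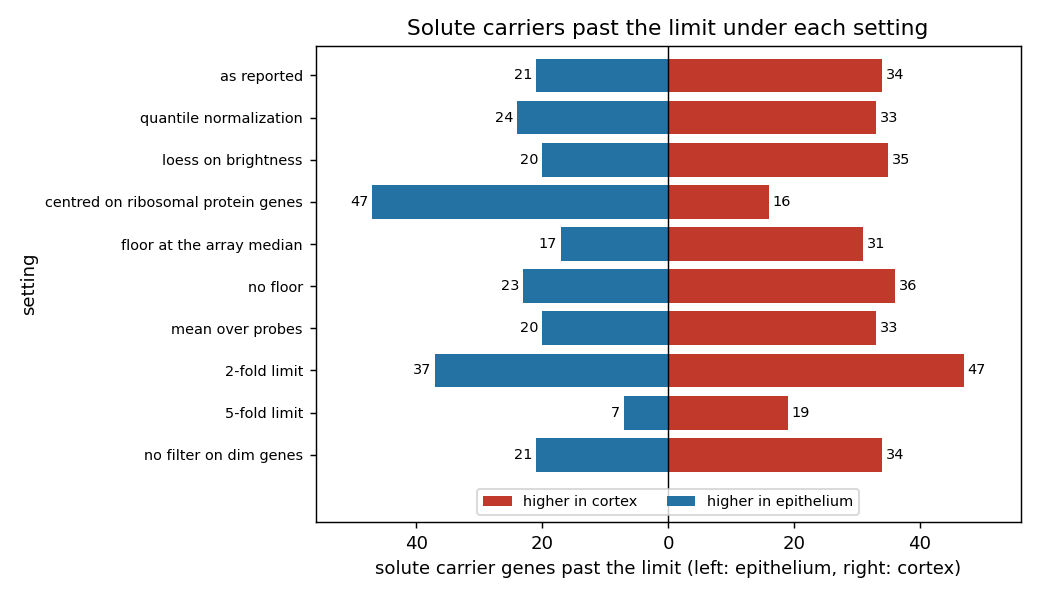
Number of solute carriers past the limit in cortex (right) and in epithelium (left) under each setting, with the count at the end of each bar. The counts are 34 and 21 as reported and 16 and 47 after centring on ribosomal protein genes.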

How the data were processed

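Per the labels, biotin-labelled complementary RNA was hybridized to CodeLink mouse arrays that were read out in 1 colour with the maker's software. The deposited values are intensities on a linear scale, 1 per probe and array. How the authors scaled them and treated background is not given in the sources at hand. Each array's median lay close to 1 (0.998 in cortex and 0.997 in epithelium, over probes with both values). Of 19819 probes, 100 lacked a value and were left out. No detection call was used, and only the floor set signal apart from background. With 1 array for each sample, the number of arrays limits the precision.

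Genes were named through the platform annotation. All 241 members matched RefSeq by Entrez identifier with no change of symbol. Of several probes, the brightest by mean log2 over both arrays stood for the gene. The members, classes and lists were chosen with earlier results of these data known. Named are all passing members of the 5 classes, all peptide and nucleoside carriers and listed lens transporters, the 3 widest differences per direction in other classes, up to 4 genes per list, and, chosen after their values were seen, relatives of these genes and genes whose probes disagree. The steps were run on simulated data with changes planted in bright genes only, which does not test how well differences near the floor are found. Alternatives were quantile normalization, loess (span 0.3), ribosomal centring, 2 other floors, the mean over probes, 2-fold and 5-fold limits and no filter on dim genes. Python 3.11.15, numpy 2.4.6, pandas 2.3.3, statsmodels 0.14.6 and matplotlib 3.10.9 were used.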

Additional observations from a re-analysis of the deposited data

How the results depend on the processing

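No paired analysis was possible because each group holds 1 array, and for the same reason no replicate could be left out. Centring on ribosomal protein genes gave 16 members higher in cortex and 47 in epithelium, 2 and 10 amino acid carriers, 0 and 6 metal carriers, and 5 ion carriers higher in epithelium, and it turned the members' median log2 difference from 0.14 to -0.81, while the median of all genes above the floor moved from 0.07 to -0.87. The 2-fold limit gave 37 members higher in epithelium, with 8 amino acid and 5 ion carriers, and 4 metal carriers in each direction. The 5-fold limit gave 19 members in cortex and 7 in epithelium, 2 and 3 amino acid carriers, 1 ion carrier in epithelium, and 1 and 0 metal carriers. All genes gave 16.4% in cortex and 15.3% in epithelium at the 2-fold limit, and 5.09% and 3.48% at the 5-fold limit. Quantile normalization gave 2 metal carriers higher in epithelium. With the mean over probes Slc15a4 turned from -1.77 to 0.32, because its probes disagree. The filter on dim genes had no effect, since 3 times the floor exceeds the array median. Of the 72 genes named by rule, 4 that did not pass changed sign after ribosomal centring, Slc28a2 (0.81 to -0.14), Slc28a3 (0.15 to -0.80), Slc39a14 (0.48 to -0.47) and Slc4a4 (0.08 to -0.87), and Slc4a4 also under quantile normalization (-0.11). Genes named after their values were seen are not in that count. Those with a positive difference below the shift of 0.95 changed sign too, among them Slc25a4, Slc34a2, Slc34a3 and Slc7a7. Depth and spot background were not used, so values near the floor carry no order.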
